A study of Rattus norvegicus with 6 samples.

Results

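The miR-15/16 family was measured by RT-qPCR in left ventricular tissue of 3 OLETF rats, labelled diabetic, and 3 LETO rats, labelled healthy controls. Its members here were miR-15a, miR-15b, miR-16, miR-195, miR-497 and miR-322, found by their exact names after the species prefix and assay number were removed, with passenger-strand (*) assays left out. The rule found 6 of 584 miRNA assays, 1 per name, each with 1 well per sample on the same card (card A). OLETF is a strain that becomes obese and develops type 2 diabetes, and LETO is its non-diabetic control strain. Every diabetic rat was OLETF and every control LETO, so diabetes, obesity and strain cannot be told apart. The rats were anesthetized and ventilated before the hearts were frozen, and the labels used here give no age or drug treatment. Each sample carried its own rat number, and p-values describe only the spread between these 6 rats. RNA came from tissue of many cell types, so fewer cells of a type and less RNA per cell cannot be told apart.

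A miRNA finds its target mRNAs mainly through its seed, the bases near its 5′ end, and members of a family share it. The miR-15/16 family is best known for repressing cyclins, cyclin-dependent kinases, other cell-cycle genes and the survival factor BCL2. In the heart, miR-195 rises after birth as heart muscle cells leave the cell cycle, and blocking the family prolongs their division in young mice. The members come from separate clusters: in mammals miR-15a lies with a copy of miR-16, miR-15b with another copy of miR-16, miR-195 with miR-497, and miR-322, whose human counterpart is called miR-424, with miR-503 on the X chromosome. Both copies of the miR-16 gene give the same mature sequence, so the miR-16 assay cannot assign its signal to a cluster.

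The mature rat sequences of 5 members and of miR-503 were taken from RefSeq (GRCr8) and are shown 5′ to 3′, with the seed (bases 2 to 8) in capitals, because the shared seed defines the family and the remainder tells the assays apart. miR-15a had no entry.
miR-16: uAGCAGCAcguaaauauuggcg
miR-195: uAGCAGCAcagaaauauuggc
miR-15b: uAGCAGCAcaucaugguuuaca
miR-497: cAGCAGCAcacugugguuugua
miR-322: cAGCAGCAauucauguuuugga
miR-503: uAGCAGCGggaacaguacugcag
The seed AGCAGCA was common to the 5 members, and miR-503 carried AGCAGCG. Of 693 mature names in the table, 5 had the seed AGCAGCA, and these were the same 5. miR-16 and miR-195 were identical at 19 of 21 aligned bases, whereas miR-195 and miR-497, neighbours in the genome, were identical at 12 of 21. miR-15b was identical to miR-16 at 14 of 22 bases and to miR-497 and miR-322 at 16 of 22 each.

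In GRCr8 the mature miR-15b lies at chr2:155555197-155555218 and miR-16 at chr2:155555343-155555364, both on the plus strand, and their hairpins are 51 bases apart within the span of Smc4, a gene of the condensin complex. miR-497 lies at chr10:55450172-55450193 and miR-195 at chr10:55450509-55450529, also on the plus strand, with 255 bases between the hairpins and no other annotated gene over either. miR-322 lies at chrX:137726198-137726219 and miR-503 at chrX:137725899-137725921, both on the minus strand, with 220 bases between the hairpins, within the span of the long non-coding RNA gene LOC102550366. The deposited tables give assay names and numbers without primer or target sequences. All member assays carry the mouse prefix mmu-, and the rat sequences stand for them here by name.

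A level is given in 2 forms, both in log2 units with higher meaning more RNA: minus the threshold cycle (Ct, the PCR cycle at which a well crosses the detection threshold) plus the mean Ct of the 4 U6 snRNA wells of the card, or plus the median Ct of the 122 card A assays measured in all 6 samples. An assay counted as measured at a Ct under 35. Between 197 and 292 assays were measured per sample, with the most in LETO replicate 3. That sample also had the lowest Ct of the 6 samples for 149 of 162 assays measured in all samples, while its U6 Ct on card A (17.9) lay inside the range of the others (17.5 to 19.2). On card B, which holds none of the members, its U6 Ct was the highest of the samples (18.0, against 16.1 to 17.9). Relative to U6 its median card A assay was high, and family results are given with and without it. Heart muscle markers were measured in all samples (6 of 6 assays tested), among them miR-133a at a Ct of 16.6 to 17.8, while miR-122 of liver and miR-375 of pancreatic islets gave an undetermined Ct in every sample. Of the brain markers, miR-124 was measured in 0 samples and miR-9 in 6 of 6, at a Ct of 28.1 to 33.0, with a difference relative to the card median of -0.94.

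All 6 members were measured in all 6 samples. miR-16 had the strongest signal, with a Ct of 20.6 to 23.4 and rank 7 of 162 by mean Ct. miR-195 followed at 22.6 to 27.1 (rank 30) and miR-322 at 25.0 to 28.1 (rank 54). miR-15a, miR-497 and miR-15b formed a lower group at mean Ct values of 29.8, 30.1 and 30.2 (ranks 102, 106 and 112). Ct values of different assays also depend on each assay's efficiency, which the sources used here do not give, so this is an order of signals rather than of molecules. miR-16 exceeded miR-195, miR-195 exceeded miR-322, and miR-322 exceeded miR-15a in 6 of 6 samples. The mean differences were 3.82, 1.58 and 2.59 log2 units (SD 1.05, 0.66 and 0.59, n = 6). The low neighbours were not separated beyond their spread: miR-15a exceeded miR-497 in 3 of 6 samples, by 0.23 ± 0.56, and miR-497 exceeded miR-15b in 3 of 6, by 0.14 ± 0.69.

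miR-15a, encoded beside a copy of miR-16, had levels relative to U6 of -12.44, -13.01 and -9.27 in LETO rats (replicates 1, 2 and 3 in this order, as throughout) and -12.47, -12.80 and -10.73 in OLETF rats. Replicate 3 was the highest sample of each group, and the groups overlapped. Means with SD over the 3 rats of a strain were -11.58 ± 2.01 in LETO and -12.00 ± 1.11 in OLETF, far closer together than the rats of either strain. Relative to the card median, miR-15a lay at -1.62, -0.96 and -0.67 in LETO and -1.18, -1.73 and -0.99 in OLETF, again overlapping. The difference was -0.22 (limma SE 0.41, two-sided exact permutation p = 0.5, where 0.1 is the smallest possible), and -0.016 without LETO replicate 3.

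miR-15b, the partner of the other miR-16 copy, lay relative to U6 at -12.90, -13.76 and -10.06 in LETO and -12.66, -12.76 and -10.82 in OLETF. Its group means were nearly equal, -12.24 ± 1.94 in LETO and -12.08 ± 1.09 in OLETF, and far closer together than the samples of either group. Relative to the card median the values were -2.08, -1.70 and -1.45 in LETO and -1.38, -1.69 and -1.08 in OLETF. The OLETF sample was the higher in 8 of 9 pairs, with a difference of 0.36 (limma SE 0.37, exact permutation p = 0.2), or 0.51 without LETO replicate 3.

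miR-16, the member with the strongest signal, is abundant in many tissues and in blood cells. Its levels relative to U6 were -4.23, -5.05 and -2.72 in LETO and -3.92, -4.07 and -2.83 in OLETF. The highest and the lowest of the 6 samples were both LETO, and means were -4.00 ± 1.18 in LETO and -3.61 ± 0.68 in OLETF. Relative to the card median, miR-16 lay at 6.59, 7.00 and 5.88 in LETO and 7.37, 6.99 and 6.90 in OLETF. In this form LETO replicate 3 was the lowest sample, and OLETF lay higher by 0.60 (limma SE 0.41; exact permutation p = 0.3), or by 0.29 without LETO replicate 3.

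Blood cell markers were read beside miR-16. Of 3 red cell markers, 2 were on the cards: miR-451 was measured only in LETO replicate 3 (Ct 33.7), and miR-486, also expressed in muscle, lay relative to the card median at 3.78 to 6.13 in LETO and 5.17 to 6.05 in OLETF (difference 0.47). Of 6 leukocyte and platelet assays 5 were tested and 4 lay higher in OLETF on that scale. These were miR-155 by 0.90, miR-146a by 0.33, miR-150 by 0.19 and miR-223 by 0.090, while miR-142-3p differed by -0.49. With U6, 2 of 5 lay higher. The summed level of the 5 assays relative to the card median spanned 6.60 to 8.45 in LETO and 7.61 to 8.25 in OLETF, so the groups overlapped. None passed an adjusted p of 0.05 (limma), and their part in the miR-16 values was not tested.

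miR-195, the member most studied in the newborn heart, lay relative to U6 at -7.94, -9.30 and -4.74 in LETO and -8.81, -8.76 and -6.22 in OLETF. miR-497, its cluster partner, lay at -12.29, -14.00 and -8.78 in LETO and -13.25, -13.09 and -10.73 in OLETF. Both were highest in LETO replicate 3, next highest in OLETF replicate 3 and lowest in LETO replicate 2. Group means were -7.33 ± 2.34 in LETO and -7.93 ± 1.48 in OLETF for miR-195, and -11.69 ± 2.66 in LETO and -12.35 ± 1.41 in OLETF for miR-497. These were the widest spreads in the family, and relative to the card median replicate 3 of each group was still the highest of its group. There miR-195 lay at 2.88, 2.75 and 3.87 in LETO and 2.48, 2.31 and 3.52 in OLETF, and miR-497 at -1.48, -1.94 and -0.17 and -1.96, -2.02 and -0.99. The differences were -0.40 (limma SE 0.49) and -0.46 (limma SE 0.54; exact permutation p = 0.5 for each), and without LETO replicate 3 they were -0.047 and 0.050.

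miR-322, encoded on the X chromosome, lay relative to U6 at -8.80, -10.68 and -7.13 in LETO and -10.10, -9.90 and -8.62 in OLETF, with means of -8.87 ± 1.78 in LETO and -9.54 ± 0.81 in OLETF. Relative to the card median it lay at 2.02, 1.38 and 1.48 in LETO and 1.18, 1.17 and 1.12 in OLETF. Every OLETF sample then lay below every LETO sample, and the SD was 0.35 in LETO and 0.032 in OLETF. The difference was -0.47 (limma SE 0.36, adjusted p = 0.636; exact permutation p = 0.1, the smallest that 3 against 3 samples allow). Each miR-322 value came from 1 well, and duplicated assays of card B had a single-well SD of 0.486 cycles. This is larger than the SD of either group, so 0.032 does not measure how alike the OLETF rats are. miR-322 was the 1 of 6 members whose groups did not overlap on this scale, against 22 of 162 assays measured in all samples (13.6%). With U6 as reference the groups of 0 of 6 members were separate, as were those of 0% of all assays.

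**Figure D1:**
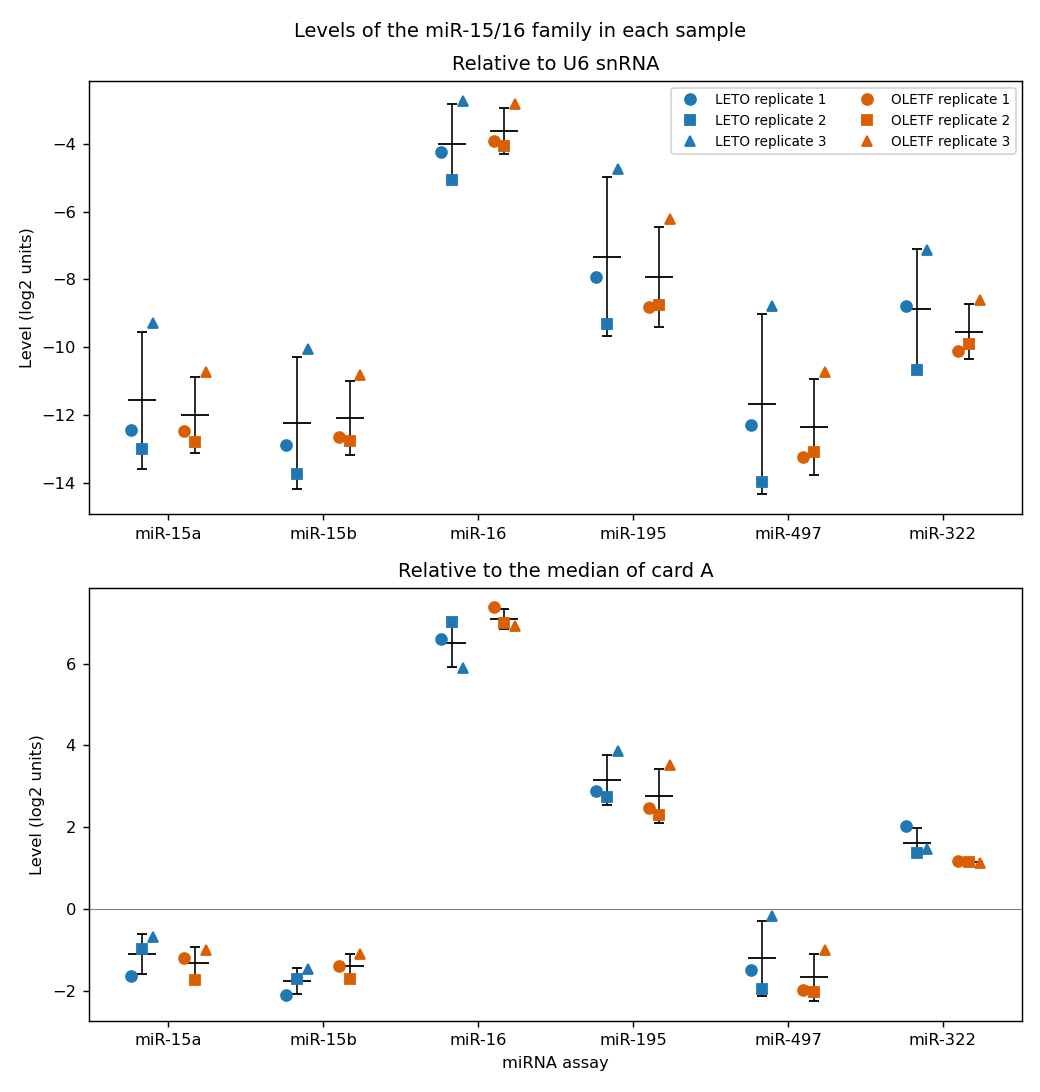
Level of each family member in every sample, in log2 units relative to U6 (upper panel) or to the median of card A (lower panel); points are samples, coloured by strain and shaped by replicate, and black bars show mean ± SD (n = 3). Relative to U6 replicate 3 stands highest in each group for every member, and relative to the card median the miR-322 groups alone are separate.

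The miR-322 hairpin is the one whose arms were both measured in all 6 samples, so its RefSeq sequence is shown (chrX:137726147-137726241, GRCr8, minus strand), with the 5′ arm that gives miR-322 and the 3′ arm in capitals.
Mir322 hairpin: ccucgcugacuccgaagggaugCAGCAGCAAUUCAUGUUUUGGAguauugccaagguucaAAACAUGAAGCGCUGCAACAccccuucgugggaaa
The miR-322* assay, named for the passenger strand, was read in 1 well per sample. Its Ct values were 28.1, 29.0 and 26.3 in LETO and 29.9, 29.3 and 27.6 in OLETF. Relative to U6 of its own card (card B) it differed by -1.12 (limma SE 1.38), and relative to the median of that card by -0.36 (limma SE 0.34), beside -0.67 and -0.47 for miR-322. It did not pass an adjusted p of 0.05 (limma) with either reference. It did when samples were weighted by how well they fitted the group means (array weights, U6 reference: -2.03, limma adjusted p = 0.0306), where miR-322 itself did not (-1.07). With these weights 30 of 193 tested assays passed, all 30 lower in OLETF, and the median difference of all assays was -0.97. The weights were 3.02, 0.33 and 0.24 in LETO and 3.25, 3.70 and 0.35 in OLETF, so LETO rested mostly on replicate 1. Set against the other small RNA controls of the cards, miR-322* differed by 0.38 and miR-322 by 0.18. The arms sit on different cards, so their difference within a sample depends on the reference. Of the other partner arms, miR-15a* was measured in 2 of 6 samples, miR-15b* in 1 and miR-16* in 3, each time including LETO replicate 3, and partner arms of miR-195 and miR-497 were not among the assays analysed here. miR-503* was measured in 5 of 6 samples.

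Of the other miRNAs of the miR-322 cluster, 6 of 8 assays were tested and 0 passed an adjusted p of 0.05 (limma). Relative to U6, 5 lay lower and 1 higher in OLETF (median -0.38), and relative to the card median 3 lay lower and 3 higher (median -0.12). With the median of both cards the split was 2 lower and 4 higher, and with the other small RNA controls 0 and 6. Of all 193 tested assays, 80.8% lay lower with U6 and 67.4% with the card median. miR-503, the nearest neighbour, differed by -0.20 relative to U6 and 0.0033 relative to the card median. The rat assay of miR-450a differed by -0.69 and -0.48, and miR-542-5p by -0.55 and -0.35. Within a sample, miR-322 exceeded miR-503 by 4.60, 4.23 and 3.15 in LETO and 3.16, 3.75 and 3.64 in OLETF, and the groups overlapped.

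No family member differed between the strains at an adjusted p of 0.05 (limma, adjusted over all 193 tested assays; 0 of 6, against 0% of all assays). At an unadjusted limma p under 0.05 the count was 0 of 6 with U6, against 1.04% of all assays, and 0 of 6 with the card median, against 6.22%. Relative to U6, miR-322 differed by -0.67, miR-497 by -0.67, miR-195 by -0.60 and miR-15a by -0.43, while miR-15b differed by 0.16 and miR-16 by 0.40. The limma SE was 1.38 and the adjusted p 0.997 for each member; limma gave all assays measured in the same samples 1 common spread on this scale. The 95% intervals ran from -3.38 to 2.03 for miR-322 and from -2.31 to 3.10 for miR-16, and therefore held both lower and higher levels in OLETF.

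The sign of a single member depended on the reference. All members sit on card A, so another reference moves all 6 by the same amount and leaves their order as it was: miR-16 the most positive, then miR-15b, miR-15a, miR-195, miR-497 and miR-322. Members lay lower in OLETF in 4 of 6 cases with U6 (median -0.51), in 4 with the card median (-0.31), in 3 with the median of both cards (-0.028) and in 0 with the other small RNA controls (0.34). The median over all tested assays was -0.60, -0.31, -0.18 and 0.37 in the same order, and 80.8% of all assays lay lower with U6 and 67.4% with the card median. miR-16, miR-15b and miR-15a lay above that median under each of the 4 references, and miR-16 and miR-15b were higher in OLETF under each. Another reference moves every card A assay measured in all samples by the same amount, so the place above the median is not 4 independent results. Among the 193 differences relative to the card median, 91.7% lay below that of miR-16, 84.5% below miR-15b, 56.5% below miR-15a, 43.0% below miR-195, 38.9% below miR-497 and 37.8% below miR-322. Without LETO replicate 3, all 6 members lay higher in OLETF relative to U6, from 0.20 for miR-322 to 1.25 for miR-15b, and the median of all assays was 0.37. The authors' deposited table gave ratios of OLETF over LETO of 1.31 for miR-16, 1.12 for miR-15b, 0.745 for miR-15a, 0.659 for miR-195, 0.631 for miR-497 and 0.627 for miR-322, which are the U6 differences on a linear scale. Of the 6 heart muscle assays, 6 lay lower in OLETF with U6 (median -0.64) and 6 with the card median (-0.44). With the median of both cards 4 lay lower (-0.16), and with the other small RNA controls 2 (0.21). Their part in the family values was not tested.

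**Figure D2:**
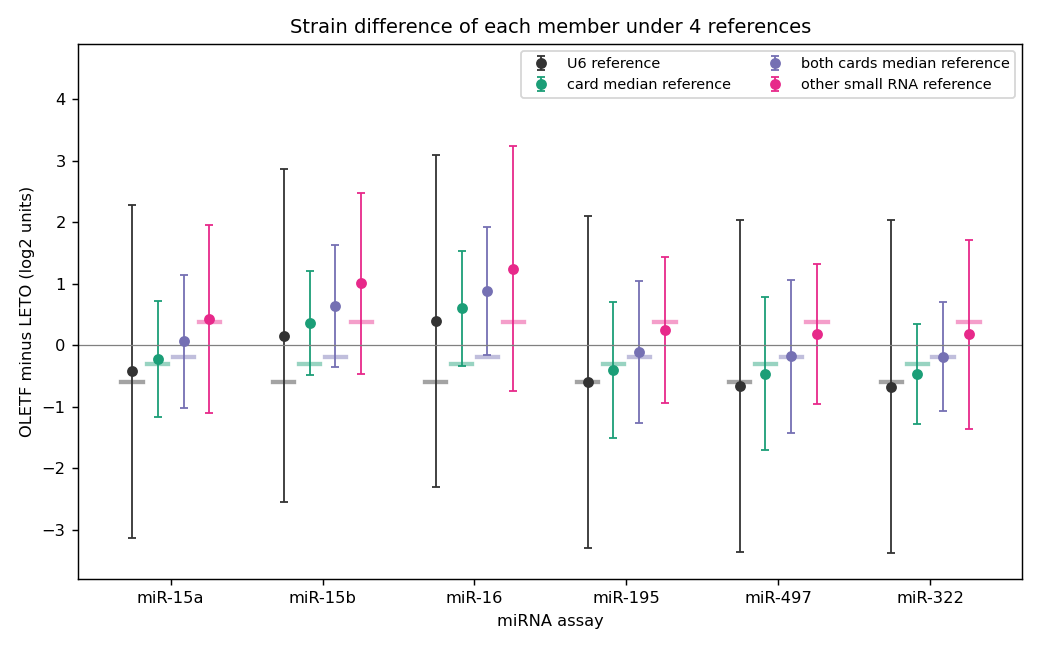
Difference between the strains (OLETF minus LETO, log2 units) of each family member under 4 references; points are limma estimates with 95% intervals and pale bars the median of all 193 tested assays under the same reference. Every interval includes 0, and the members keep 1 order while the whole family moves with the reference.

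The reference cancels in differences between members of the same sample. These describe whether the clusters changed unequally but cannot settle it, because 3 against 3 samples allow no exact permutation p below 0.1. miR-15b minus miR-15a was -0.46, -0.75 and -0.78 log2 units in LETO and -0.19, 0.043 and -0.089 in OLETF. The pair thus lay closer together in every OLETF sample than in any LETO sample, and the groups did not overlap (-0.66 ± 0.18 against -0.080 ± 0.12). The shift was 0.58 (SE 0.12, higher in 9 of 9 pairs of samples; two-sided exact permutation p = 0.1, 0.6 after Benjamini-Hochberg adjustment over the 6 differences), and 0.52 without LETO replicate 3. Each member was read in a single well. Some assays of card B had duplicate wells, and there a single well had an SD of 0.486 cycles over 189 pairs. The 4 U6 wells of card A had SDs of 0.184 to 0.31. At the error of the duplicated card B assays, a difference of 2 single wells has an SD of 0.69. That is larger than the shift of 0.58 and than the SD of either group, and the part of well error in the shift was not tested.

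The other 5 differences overlapped between the strains. miR-16 minus miR-15a was 8.21, 7.96 and 6.55 in LETO and 8.55, 8.73 and 7.90 in OLETF, a shift of 0.82 (SE 0.57; exact permutation p = 0.3) that was 0.31 without LETO replicate 3. miR-16 minus miR-15b was 8.67, 8.71 and 7.33 in LETO and 8.75, 8.68 and 7.99 in OLETF, a shift of 0.24 (SE 0.51; exact permutation p = 0.6) that turned to -0.21 without LETO replicate 3. In both differences replicate 3 was the lowest sample of its group. miR-16 minus miR-195 was 3.71, 4.25 and 2.01 in LETO and 4.89, 4.69 and 3.38 in OLETF. It shifted by 1.00 (SE 0.82; exact permutation p = 0.3), and by 0.34 without LETO replicate 3, where replicate 3 was again the lowest of each group.

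miR-195 minus miR-497, the difference within that cluster, was 4.36, 4.69 and 4.04 in LETO and 4.45, 4.33 and 4.51 in OLETF. It shifted by 0.064 (SE 0.20; exact permutation p = 0.8), and by -0.097 without LETO replicate 3. miR-322 minus miR-195 was -0.86, -1.37 and -2.39 in LETO and -1.30, -1.14 and -2.40 in OLETF. Its shift was -0.073 (SE 0.60; exact permutation p = 0.9), and -0.50 without LETO replicate 3. Over the 6 differences the adjusted p ran from 0.6 to 0.9. The groups did not overlap in 1 of these 6 and in 3 of the 15 possible pairs of members, against 13.8% of 7381 pairs of card A assays. The other pairs without overlap were miR-15b minus miR-322, higher in OLETF by 0.83 (SE 0.41), and miR-16 minus miR-322, higher by 1.07 (SE 0.40). They were singled out after their values were seen.

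**Figure D3:**
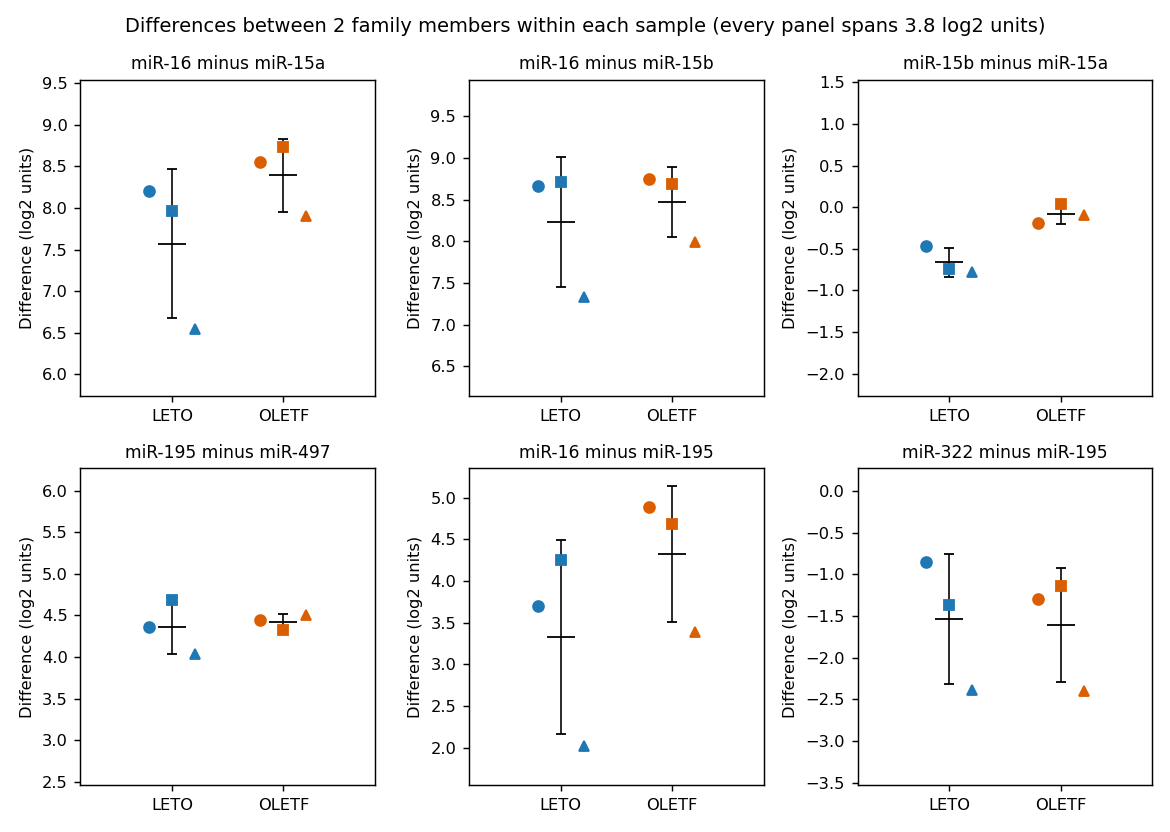
Difference between 2 family members within each sample, in log2 units, for LETO (blue) and OLETF (orange); circles, squares and triangles are replicates 1, 2 and 3, black bars show mean ± SD (n = 3), and all panels span the same range. miR-15b minus miR-15a is the panel whose groups do not overlap, and miR-195 minus miR-497 varies least.

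Taken as cluster means relative to the card median, the miR-15b/16 pair lay at 2.25, 2.65 and 2.22 in LETO and 3.00, 2.65 and 2.91 in OLETF, so the groups all but met at 2.65. The mean difference was 0.48, or 0.40 without LETO replicate 3. The miR-15a/16 pair differed by 0.19, and 0.14 without LETO replicate 3. These clusters share the miR-16 assay, so their values are not independent. The miR-195/miR-497 pair lay at 0.70, 0.41 and 1.85 in LETO and 0.26, 0.14 and 1.27 in OLETF, a difference of -0.43 that was 0.0015 without LETO replicate 3. miR-322 differed by -0.47 with and -0.54 without that sample. Relative to U6 the differences were 0.28 for miR-15b/16, -0.015 for miR-15a/16, -0.63 for miR-195/miR-497 and -0.67 for miR-322, each with overlapping groups.

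The spread of the difference between cluster partners from sample to sample is given as a description, without a test. The SD over 6 samples of miR-195 minus miR-497 was 0.22 log2 units, the smallest of the 15 family pairs, and 1.29% of all card A pairs had a smaller one. The SD was 0.58 for miR-16 and miR-15b and 0.77 for miR-16 and miR-15a, with 29.0% and 50.6% of pairs below them. For miR-322 and miR-503 it was 0.58, with 29.1% below. A difference of 2 single wells has an SD of 0.69 at the well error of the duplicated card B assays. This is larger than 3 of these 4 values, so their order is not established, and miR-16 cannot be assigned to a cluster. The median SD was 0.64 over the 15 family pairs and 0.77 over all pairs of card A. miR-16 and miR-195, nearly identical in sequence, had an SD of 1.05, and the widest family pair was miR-16 and miR-497 at 1.20. Across the 6 samples, relative to the card median, Pearson's r was 0.96 for miR-195 and miR-497, 0.59 for miR-15a and miR-15b, 0.12 for miR-15b and miR-16, -0.40 for miR-15a and miR-16, and -0.77 for miR-16 and miR-195. Its median was 0.13 over the 15 family pairs and 0.11 over all card A pairs. Each r rests on 6 points from 2 strains, and the values are descriptions without a test.

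**Figure D4:**
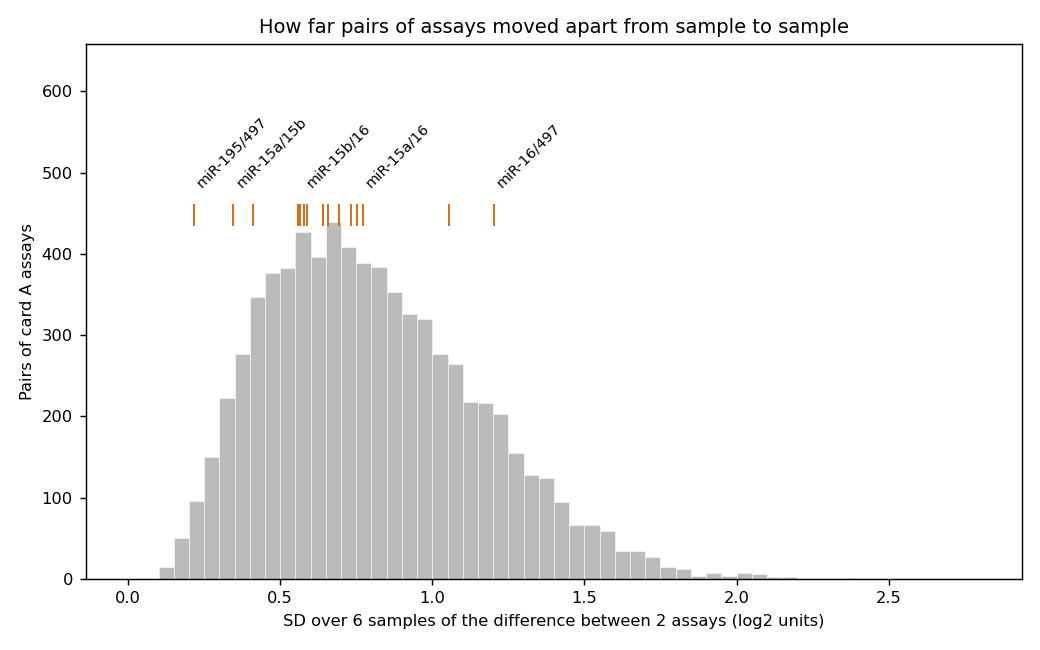
Number of pairs of card A assays (bars) by the SD over 6 samples of their within-sample difference in log2 units, with the 15 pairs of family members as orange ticks and 5 of them named. The miR-195/miR-497 pair lies at the left edge and miR-16/miR-497 furthest right among the family pairs.

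The assays outside the family with the most similar pattern were found by Pearson's r over the 6 samples among assays measured in all of them, relative to the card median. For miR-195 they were miR-126-5p (r = 0.97) and miR-140 (r = 0.97), and for miR-497 miR-21 (r = 0.99) and miR-140 (r = 0.96), so miR-140 stood on both lists. miR-126-5p comes from the hairpin of the endothelial miR-126, and miR-21 is enriched in fibroblasts. The patterns of other markers of the endothelium, fibroblasts and smooth muscle were mixed. Relative to the card median, miR-126-3p, the other arm of that hairpin, lay at 9.09, 9.56 and 8.58 in LETO and 9.48, 8.83 and 9.33 in OLETF, and the fibroblast-enriched miR-214 at 0.94, 0.60 and 0.54 in LETO and 1.04, 0.62 and 1.55 in OLETF. Both were lowest among the LETO rats in replicate 3, where miR-195 and miR-497 were highest. Among the OLETF rats miR-214 was highest in replicate 3, as were miR-195 and miR-497. Fibroblast miR-199a-3p, at 1.64, 1.30 and 2.30 in LETO and 1.92, 0.83 and 1.82 in OLETF, was highest in LETO replicate 3. Smooth muscle miR-145 lay at 5.71, 4.84 and 5.82 in LETO and 4.40, 4.34 and 5.69 in OLETF. miR-143 lay at 2.90, 2.38 and 3.90 in LETO and 2.53, 2.71 and 3.07 in OLETF. These smooth muscle markers were highest in replicate 3 of each group. The part of these cell types in the miR-195 and miR-497 values was not tested. For miR-16 the most similar assays were miR-331-3p (r = 0.97) and miR-155 (r = 0.96), for miR-322 miR-27b (r = 0.91) and miR-25 (r = 0.88), for miR-15b miR-218 (r = 0.88) and miR-203 (r = 0.84), and for miR-15a miR-19a (r = 0.87) and miR-27a* (r = 0.86). Each is the best of many matches over only 6 samples, and no p is given.

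Other miRNAs known to act on the cell cycle were read beside the family. Of 19 names listed, 17 were on the cards and 15 were tested, and 0 passed an adjusted p of 0.05 (limma). Relative to U6 12 lay lower and 3 higher in OLETF (median -0.48), and relative to the card median 11 and 4 (median -0.28). With the median of both cards the split was 7 and 8, and with the other small RNA controls 3 and 12. Of all 193 tested assays, 80.8% lay lower with U6 (median -0.60) and 67.4% with the card median (median -0.31), so the list lay near the background. Relative to the card median, miR-26a, which represses EZH2 and cyclins, differed by -0.47, miR-29b, known for its collagen targets, by -0.63, let-7a by -0.89, and miR-17, a driver of proliferation, by 0.28. The p53-regulated miR-34a differed by -1.11 and miR-34b-3p by 1.40, the outermost values of the list. With array weights and the U6 reference, where LETO rested mostly on replicate 1, miR-34a alone of the list passed (-1.88, limma adjusted p = 0.0462). In that setting 30 of all 193 tested assays passed, all 30 lower in OLETF. miR-222, which represses the inhibitor p27, differed by 0.56, close to the 0.60 of miR-16.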

How the data were processed

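Left ventricular miRNAs of 3 LETO and 3 OLETF rats were measured on TaqMan rodent miRNA cards. Per the labels' protocols, RNA was isolated with a mirVana kit, reverse-transcribed with stem-loop primers and amplified in a 7900HT instrument; thresholds and baselines are not given in the sources used here. The authors deposited Ct values per well, delta Ct values (log2, sign reversed) and a linear ratio of OLETF over LETO, per the file headers. Recomputed and deposited delta Ct differed by at most 3.75e-06 over 3504 values, with an undetermined assay counted as 40. Here, wells of an assay were averaged, a Ct of 35 or more was treated as not measured, and 193 of 584 miRNA assays measured in at least 2 of 3 samples per group were tested with limma 3.58.1 in R 4.3.3 (lmFit, eBayes, two-sided, Benjamini-Hochberg over all tested assays). Single values and within-sample differences were tested by exact two-sided permutation in SciPy 1.17.1. The fit was also run on simulated data with independent noise at the spread of the card median scale. These data lacked the sample-wide shifts seen relative to U6, so they do not test the fit on that scale.

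The rule for named miRNAs took all members, list members measured in at least 4 of 6 samples, and for each member the 2 assays most alike over 6 samples. The members, lists, tests and alternatives were chosen with earlier results of these data known. Alternatives were other references, Ct limits, the deposited table, blocks, array weights and leaving out each sample; 1 combination was added after seeing the data. The card median reference is the median of the assays measured in all samples (122 on card A, 40 on card B); the other small RNA controls were 3 on card A and 2 on card B.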

Additional observations from a re-analysis of the deposited data

How the results depend on the processing

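No family member passed an adjusted p of 0.05 (limma) in any of 17 alternatives. Over all assays the count of 0 became 1 with the replicate block and 1 with replicate 3 as a batch, each time miR-466d-3p. It became 30 with array weights, where LETO rested mostly on replicate 1. All 30 lay lower in OLETF. Among them were miR-322*, miR-34a and the mouse-named assay of the heart muscle marker miR-1, but not its rat-named assay. Leaving out 1 sample gave 0 to 3. The 3, miR-135a*, miR-690 and miR-466d-3p, came without LETO replicate 2; they were singled out by this result, and the cause was not tested. Deviations from the group means of samples sharing a label number correlated at -0.088, 0.23 and 0.62, for numbers 1, 2 and 3, not all above 0.1, so no pairing was assumed; the replicate block gave miR-16 0.40 and miR-322 -0.67 and changed no call in the family. The sign of the U6 difference turned with the other small RNA controls for miR-15a (0.43), miR-195 (0.25), miR-497 (0.19) and miR-322 (0.18), with the median of both cards for miR-15a (0.060), with a Ct limit of 32, which drops 1 LETO sample, for miR-15b (-0.17), and, as an alternative added after the data were seen, when LETO replicate 3 was dropped under the card median for miR-497 (0.050). With 1 sample left out the differences ran from -1.14 to 0.73 for miR-15a, -0.60 to 1.25 for miR-15b, -0.13 to 1.03 for miR-16, -1.59 to 0.69 for miR-195, -1.82 to 0.79 for miR-497 and -1.58 to 0.20 for miR-322. The within-sample shifts ran from 0.52 to 0.68 for miR-15b minus miR-15a, 0.31 to 1.14 for miR-16 minus miR-15a, 0.34 to 1.46 for miR-16 minus miR-195, -0.21 to 0.48 for miR-16 minus miR-15b, -0.097 to 0.23 for miR-195 minus miR-497 and -0.50 to 0.32 for miR-322 minus miR-195. Single wells and 3 rats per strain limit the precision of every value.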
